A study of Homo sapiens with 7 samples.

Results

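Chromosome 8 of the T-47D breast cancer cell line was described from the peaks of 6 chromatin immunoprecipitation sequencing (ChIP-seq) lists. All peaks on chromosome 8 (hg19) were taken. A peak whose midpoint lay before 43.8 Mb was placed on the short arm (8p), and a peak after 46.8 Mb on the long arm (8q). This gave 16783 of the 285703 peaks on chromosomes 1 to 22 and X, or 5.87% of the peaks on 5.16% of the analysed span. Of these, 13547 lay on 8q and 3236 on 8p, and 0 lay between the boundaries.

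All libraries came from T-47D, an estrogen receptor-positive line of luminal type, grown in DMEM with 10% serum to 70 to 80% confluence in 100 mm dishes. The labels name no treatment. Antibodies against H2A.Z, H3K9me3, H3K27me3, H3K36me3, H3K4me2 and H3K27ac were used, with 1 library each and no replicate. An input library is also listed and was not analysed here. The lists give chromosome, start, end and a name per peak, with no height or score, and read depth is unknown. Intervals below (95%) are exact Poisson or binomial ones unless named otherwise. They cover counting error only, and no p-value is given because each mark has 1 library.

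As background, H3K4me2 and H3K27ac are found at promoters and enhancers, and H3K36me3 is laid down along genes as they are transcribed. H3K27me3 is the product of Polycomb complexes at silent genes, H3K9me3 is typical of constitutive heterochromatin, and the variant H2A.Z is usually found at active and poised promoters. Breast cancer cell lines such as T-47D are aneuploid, and loss of 8p and gain of 8q are frequent in breast tumours. Where a stretch of chromosome has more copies it gives more reads of all kinds, so a step in copy number is expected to move several lists at 1 place and in 1 direction. Peak lists hold no copy number. Copy number, the chromatin state itself, sequence content and the treatment of the input by the peak caller cannot be told apart in them.

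The names H2A.Z and H3K9me3 are used here for the lists under those labels. On chromosome 8, 3 of 5258 labelled H2A.Z peaks overlapped H3K27ac and 11 overlapped H3K4me2, while 270 of 1274 labelled H3K9me3 peaks (21.2%) overlapped H3K27ac and 368 (28.9%) overlapped H3K4me2. In the rest of the genome the shares on H3K27ac and H3K4me2 were 0.0447% and 0.315% for labelled H2A.Z and 31.0% and 35.7% for labelled H3K9me3. These proportions run against the background for both marks, so the directions given for these lists hold for the label only. Cell type markers were not examined, because an hg19 gene annotation was not used here, and regions are given without gene names.

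8q was denser than 8p in 5 of the 6 lists, and the excess was largest in the lists labelled H2A.Z and H3K9me3. Labelled H2A.Z had 4730 peaks on 8q, or 47.6 per Mb (46.2 to 48.9), against 528 on 8p, or 12.1 per Mb (11.1 to 13.2). The ratio of 8q to 8p was 3.93 (3.59 to 4.30). Labelled H3K9me3 had 11.2 peaks per Mb on 8q (10.5 to 11.8) and 3.76 on 8p (3.21 to 4.38), a ratio of 2.97 (2.52 to 3.52).

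H3K27me3 showed the same direction at a smaller size, H3K4me2 and H3K27ac at smaller sizes still, and H3K36me3 was close to even. H3K27me3 had 3320 peaks on 8q and 885 on 8p, or 33.4 against 20.3 per Mb, a ratio of 1.64 (1.53 to 1.77). The ratio was 1.30 (1.2 to 1.42) for H3K4me2, with 2171 peaks on 8q and 732 on 8p. It was 1.17 (1.03 to 1.34) for H3K27ac, with 800 and 299 peaks. H3K36me3 had 14.2 peaks per Mb on 8q and 14.4 on 8p, a ratio of 0.988 (0.899 to 1.09). The H3K27ac excess was not stable. The log2 ratio was -0.17 without 5 Mb at the ends of both arms and -0.039 without the 3 densest bins, against 0.23 over whole arms.

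Compared with the other 22 chromosomes pooled, 8q held 2.66 times the density of labelled H2A.Z (2.59 to 2.75), 1.53 times that of labelled H3K9me3 (1.44 to 1.63) and 1.46 times that of H3K27me3 (1.41 to 1.51). 8p held 0.679, 0.516 and 0.885 times the density of these lists. For the active marks both arms lay below the rest of the genome. H3K27ac stood at 0.697 times on 8q and 0.594 times on 8p, H3K36me3 at 0.741 and 0.750 times, and H3K4me2 at 0.931 and 0.716 times.

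The arm was not where the density changed. To place the change, peaks were counted in 1 Mb bins, and for each list the single boundary was found that best split the chromosome into stretches of a lower and a higher rate (Poisson likelihood, at least 5 Mb on each side, 145 bins). Labelled H2A.Z and labelled H3K9me3 both stepped at 34 Mb, inside 8p and about 10 Mb short of the centromere. H3K27me3 stepped at 39 Mb, also on 8p, and H3K4me2 at 22 Mb. H3K36me3 and H3K27ac stepped at 141 Mb, near the end of 8q. All 6 steps went up toward the 8q telomere.

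**Figure D1:**
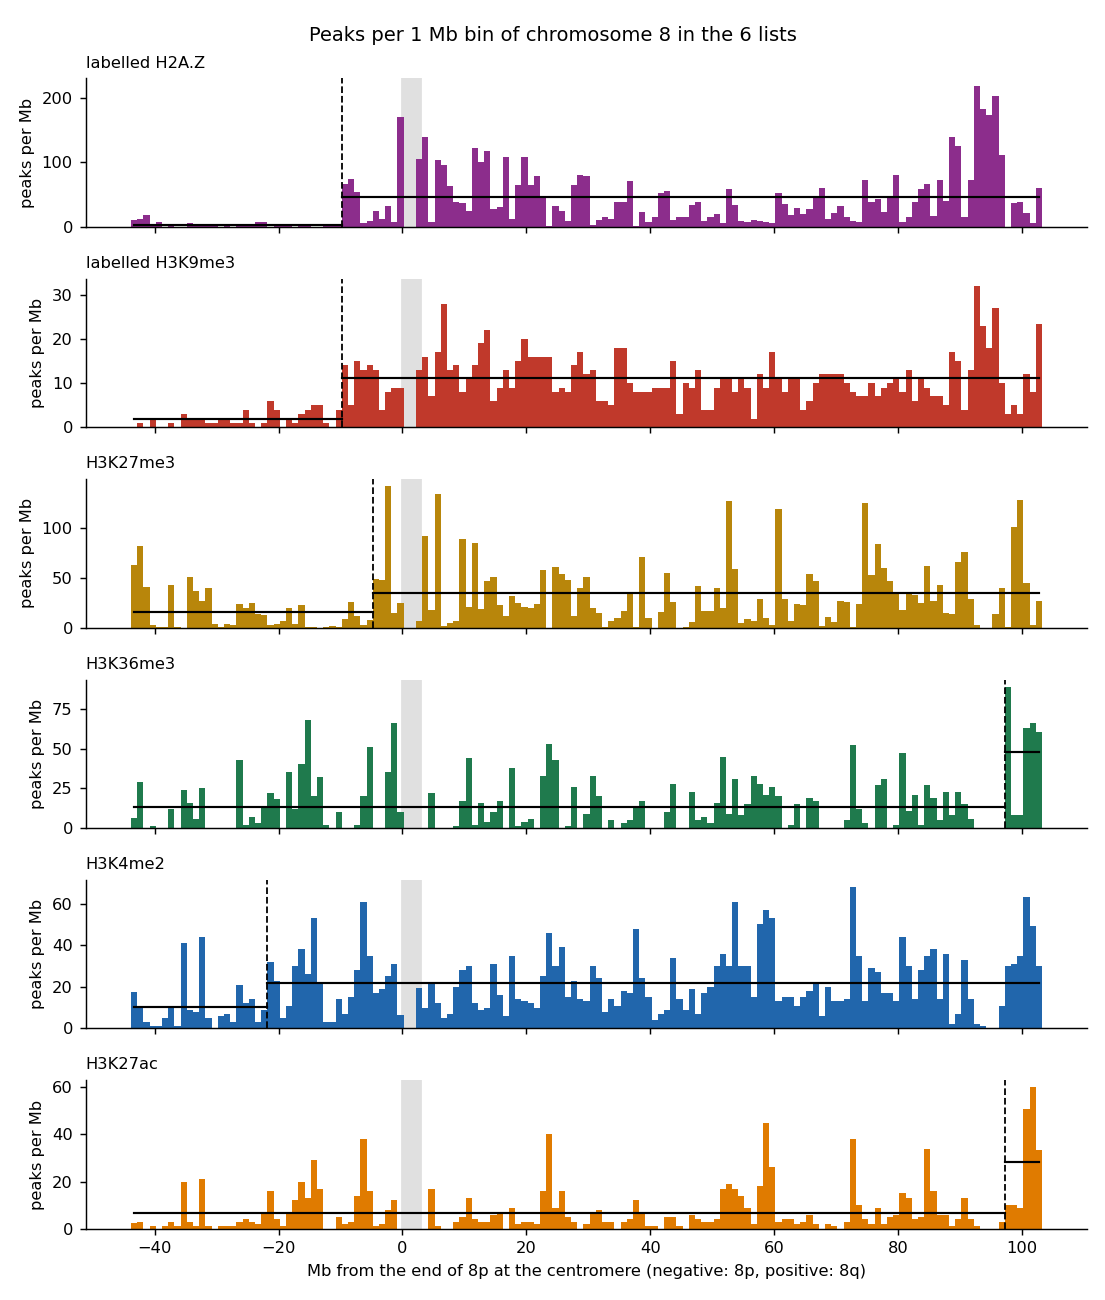
Peaks per Mb in each 1 Mb bin of chromosome 8 for the 6 lists, with position in Mb from the end of 8p at the centromere (grey, negative values on 8p). Dashed lines mark the best single step of each list and horizontal lines the rate on each side; the lists labelled H2A.Z and H3K9me3 share a step at 34 Mb, while H3K36me3 and H3K27ac step at 141 Mb.

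Labelled H2A.Z was sparse in distal 8p, the 33.8 Mb before the step. It had 5154 peaks from 34 Mb on, or 47.2 per Mb (45.9 to 48.5), against 104 in distal 8p, or 3.08 per Mb (2.51 to 3.73), a ratio of 15.3 (12.6 to 18.8). The bins from 34 Mb on ran from 0 to 219 peaks per Mb with a median of 34, and those of distal 8p from 0 to 18 with a median of 2. Of 111 bins from 34 Mb on, 74 stood above the highest bin of distal 8p. The ranges therefore overlap, but most bins lie apart. The low density of distal 8p is not particular to it. Labelled H2A.Z had 1.71 peaks per Mb on chromosome 13, 1.76 on 2, 1.99 on X, 2.48 on 4 and 2.49 on 18.

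Labelled H3K9me3 was more even than any other list on each side of its step. It had 1212 peaks from 34 Mb on, or 11.1 per Mb (10.5 to 11.7), and 62 in distal 8p, or 1.83 per Mb (1.41 to 2.35), a ratio of 6.05 (4.69 to 7.94). Low densities are not particular to distal 8p in this list either. Labelled H3K9me3 had 1.84 peaks per Mb on chromosome X, 2.35 on 18, 2.40 on 13, 2.50 on 4 and 2.72 on 2. Bins ran from 2 to 32 peaks per Mb (median 10) from 34 Mb on and from 0 to 6 (median 1) in distal 8p. The variance of its bins was 2.54 times their mean from 34 Mb on and 1.49 times in distal 8p, where counting error alone gives 1. The same quotient was 43.3 and 5.51 for labelled H2A.Z, 32.5 and 24.6 for H3K27me3, and between 9.79 and 22.3 in all stretches for H3K36me3, H3K4me2 and H3K27ac. Because of this unevenness, the intervals are too narrow for every list.

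Proximal 8p, from 34 Mb to the centromere, had mean densities close to those of 8q in the lists labelled H2A.Z and H3K9me3 and in H3K27me3. Labelled H2A.Z had 47.6 peaks per Mb on 8q and 43.3 in this proximal 8p, a ratio of 1.10 (0.994 to 1.22). Labelled H3K9me3 had 11.2 and 10.4, a ratio of 1.07 (0.874 to 1.33), and H3K27me3 33.4 and 33.9, a ratio of 0.984 (0.879 to 1.11). H3K36me3 was denser in proximal 8p, with a ratio of 8q to proximal 8p of 0.766 (0.656 to 0.899). The ratio was 0.879 (0.770 to 1.01) for H3K4me2 and 0.820 (0.663 to 1.02) for H3K27ac, and both intervals hold 1. Single bins carry part of these means. The bin from 41 to 42 Mb held 142 of the 332 H3K27me3 peaks of proximal 8p, and the last bin before the centromere 135 of its 424 labelled H2A.Z peaks. Labelled H2A.Z was not at an even level there. It had 65.3 peaks per Mb from 34 to 37 Mb. The bins from 37 to 43 Mb held 6, 9, 25, 13, 33 and 7, where the highest bin of distal 8p had 18. From 34 to 39 Mb H3K27me3 had 11.6 peaks per Mb. The median bin had 35 labelled H2A.Z peaks per Mb on 8q and 29 in proximal 8p, and 24 and 20.2 for H3K27me3.

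Single peaks place the change beside a stretch from 34.2 to 34.4 Mb that holds no peak midpoint of any list. The last labelled H2A.Z peak before its best step lay at 34105490 to 34105990 and the next at 34421474 to 34421974, 315 kb further on. The last labelled H3K9me3 peak before its step was at 34124769 to 34125556 and the next at 34483916 to 34484546, 358 kb further on. In the 1 Mb after the step labelled H2A.Z had 82 peaks, against 3 in the 1 Mb before it. Labelled H3K9me3 had 17 and 3. From midpoints the place of the labelled H3K9me3 step could be anywhere from 34.1 to 34.5 Mb within 2 units of log likelihood, a range that holds the labelled H2A.Z step at 34.4 Mb.

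Over 10 Mb on each side the active marks differed far less than the other lists. In the 10 Mb after 34 Mb, cut at the end of 8p, labelled H2A.Z had 424 peaks, against 12 in the 10 Mb before it, a ratio of 36.1 (20.4 to 70.4). H3K27me3 had 332 and 60, a ratio of 5.65 (4.28 to 7.57), and labelled H3K9me3 102 and 25, a ratio of 4.17 (2.67 to 6.74). H3K27ac had 96 and 104, a ratio of 0.943 (0.707 to 1.26). H3K36me3 had 182 and 219, a ratio of 0.849 (0.693 to 1.04), and H3K4me2 243 and 205, a ratio of 1.21 (1.0 to 1.47). Closer to the step the active marks parted from each other. In the 3 Mb after 34 Mb against the 3 Mb before it, H3K4me2 had 50 and 20 peaks, H3K27ac 19 and 5, and H3K36me3 2 and 12.

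**Figure D2:**
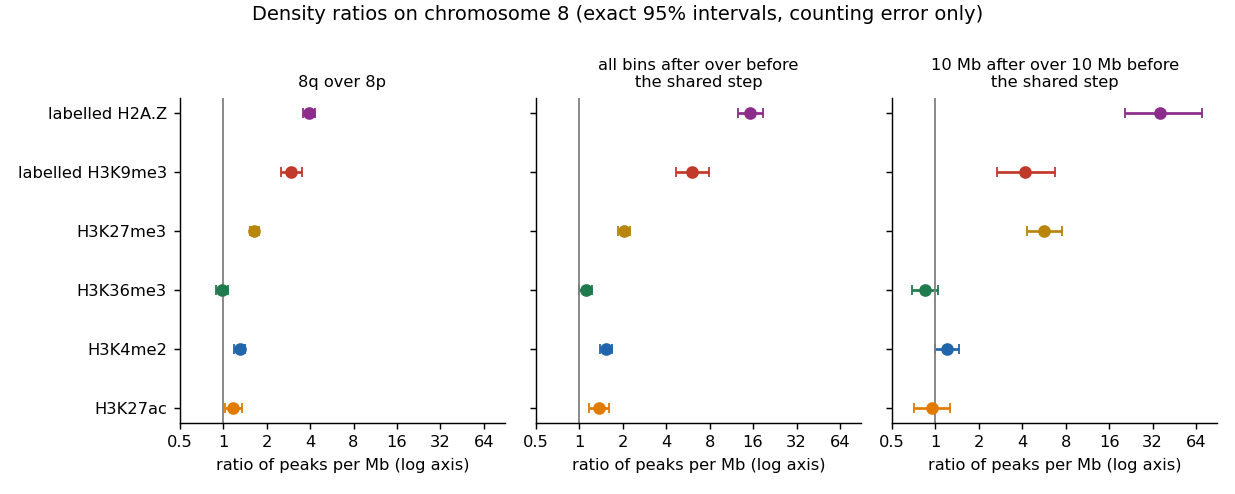
Ratios of peaks per Mb with exact 95% intervals (log axis) for 8q over 8p, for all bins after over before 34 Mb, and for the 10 Mb after over the 10 Mb before it. The lists labelled H2A.Z and H3K9me3 and H3K27me3 lie above 1 in every panel, whereas H3K27ac and H3K36me3 straddle 1 in the 10 Mb comparison (0.943 and 0.849).

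When 1 boundary was sought for all 6 lists together, each with its own rates, it was 34 Mb. At that boundary the ratio of the stretch after it to distal 8p was above 1 in all 6 lists, but its size differed. Against 15.3 for labelled H2A.Z and 6.05 for labelled H3K9me3, it was 2.04 (1.87 to 2.24) for H3K27me3, 1.53 (1.39 to 1.69) for H3K4me2, 1.37 (1.17 to 1.6) for H3K27ac and 1.11 (0.998 to 1.23) for H3K36me3. The boundary rested on labelled H2A.Z, the list with the most peaks and the strongest step. Without it the boundary was 36 Mb, and without both labelled lists it was 141 Mb.

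The steps were also read at each other's places. At 141 Mb, where H3K27ac had a ratio of 4.11 (3.44 to 4.89) and H3K36me3 of 3.66 (3.19 to 4.17), labelled H2A.Z had a ratio of 0.607 (0.502 to 0.728) and labelled H3K9me3 of 0.799 (0.563 to 1.10). H3K4me2 had a ratio of 2.1 there (1.82 to 2.41), the same as at its own best place of 22 Mb (2.1, 1.83 to 2.41), and H3K27me3 had a ratio of 1.90 (1.68 to 2.14). At 39 Mb, its own place, H3K27me3 had a ratio of 2.19 (2.01 to 2.39). At 22 Mb the ratio was 8.31 (5.68 to 12.7) for labelled H3K9me3 and 10.2 (8.30 to 12.7) for labelled H2A.Z. The place of each step was chosen from the same counts, so these sizes are descriptions. The steps at 141 Mb lie at the last boundary that leaves 5 Mb after it, and with at least 10 Mb on each side they moved to 17 Mb for H3K36me3 and 95 Mb for H3K27ac.

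**Figure D3:**
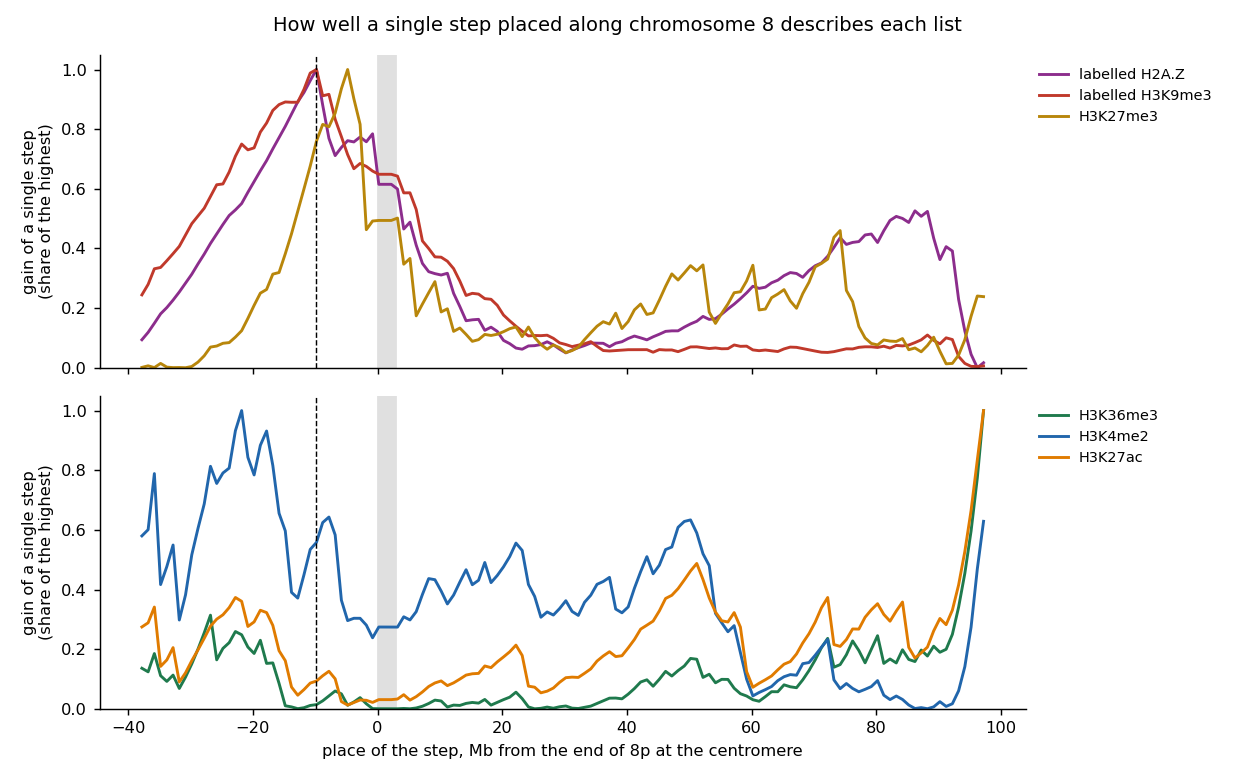
Gain in log likelihood of a single step placed at each 1 Mb boundary, as a share of the highest gain of that list, against distance from the end of 8p at the centromere; the dashed line is at 34 Mb. The lists labelled H2A.Z and H3K9me3 peak there, H3K27me3 peaks at 39 Mb, and H3K36me3 and H3K27ac have their highest gain at 141 Mb, the last boundary allowed.

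Set out by label, the repressive marks H3K27me3 and H3K9me3 stepped at 39 and 34 Mb, and the marks of active chromatin at 34 Mb (labelled H2A.Z), 22 Mb (H3K4me2) and 141 Mb (H3K36me3 and H3K27ac). Set out by the overlaps, labelled H2A.Z joins H3K27me3, with steps at 34 and 39 Mb. Labelled H3K9me3 then joins H3K4me2 and H3K27ac, with steps at 34, 22 and 141 Mb. That placement is partial, as 52.2% of labelled H3K9me3 peaks on chromosome 8 met no other list. Across 145 bins of the chromosome its Spearman rho was 0.69 with labelled H2A.Z, 0.044 with H3K4me2 and -0.024 with H3K27ac. In neither grouping did all lists of a side step at 1 place. The lists that stepped between 34 and 39 Mb were labelled H2A.Z, labelled H3K9me3 and H3K27me3.

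Steps of 2-fold or more are common along chromosomes. A best single step of at least 2-fold, in either direction, was found for labelled H2A.Z on 22 of 23 chromosomes (95.7%), for labelled H3K9me3 on 17 (73.9%), for H3K27me3 on 19 (82.6%), for H3K36me3 on 12 (52.2%), for H3K4me2 on 10 (43.5%) and for H3K27ac on 19 (82.6%). The 6 steps of chromosome 8 all passed 2-fold. By size the labelled H3K9me3 step ranked 1 of 23, where the other chromosomes ran from 1.42 to 5.0 with a median of 2.79. The labelled H2A.Z step ranked 3 (other chromosomes 1.95 to 22.8, median 4.49), behind chromosomes 11 and 4. The H3K36me3 and H3K27ac steps ranked 3, that of H3K4me2 ranked 10 and that of H3K27me3 ranked 18. By the gain in log likelihood per peak chromosome 8 ranked lower, at 6 for labelled H3K9me3, 10 for labelled H2A.Z, 7 for H3K36me3, 9 for H3K27ac, 13 for H3K4me2 and 20 for H3K27me3.

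The labelled H2A.Z and H3K9me3 steps fell within 1 Mb of each other and in 1 direction on 5 of 23 chromosomes (21.7%), namely 8, 9, 10, 13 and X. The median distance over all chromosomes was 11 Mb. H3K36me3 and H3K27ac did so on 10 of 23 (43.5%), chromosome 8 among them. On chromosome 8 this was at 141 Mb, the last boundary allowed. With at least 10 Mb on each side the steps were at 17 Mb for H3K36me3 and 95 Mb for H3K27ac. None of the other 13 pairs stepped within 1 Mb and in 1 direction on chromosome 8. Over all 23 chromosomes they did so on 26.1% for H3K4me2 with H3K36me3 or with H3K27ac, on 21.7% for labelled H2A.Z with H3K27me3, and on 0, 4.35 or 8.7% for the remaining 10 pairs. All 6 lists stepped in 1 direction on 10 of 23 chromosomes (43.5%), so the common direction on chromosome 8 is not unusual among them.

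**Figure D4:**
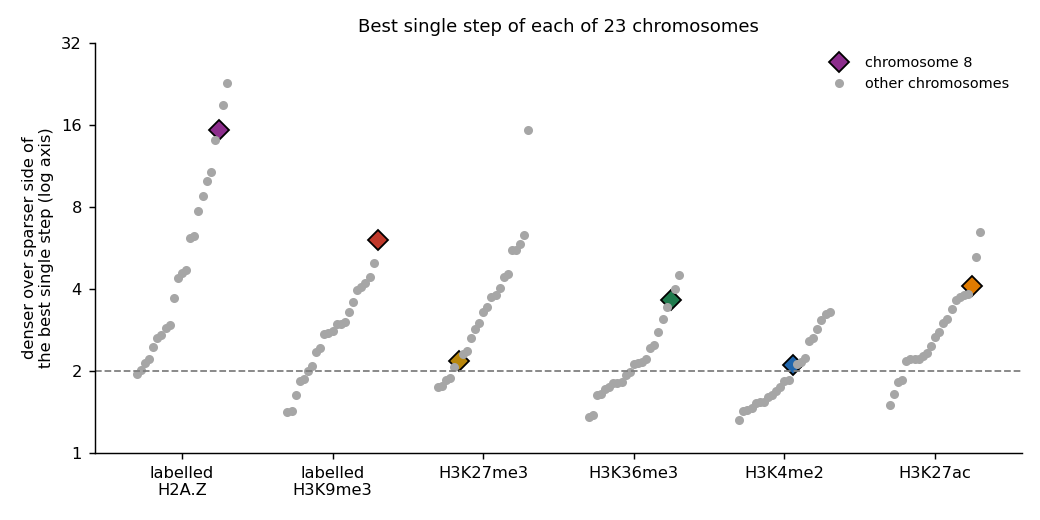
Ratio of the denser to the sparser side of the best single step (log axis) on each of 23 chromosomes, with chromosome 8 as diamonds and the dashed line at 2-fold. Chromosome 8 is highest for labelled H3K9me3 (6.05), ranks 3 for labelled H2A.Z, H3K36me3 and H3K27ac, and lies among the others for H3K27me3 and H3K4me2.

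The bins of distal 8p were also set against the genome-wide median bin of each list. For labelled H3K9me3 (median 5 per Mb) 54 of 111 bins from 34 Mb on were over 2 times the median, against 0 of 34 in distal 8p, where 24.1% of all bins are. Under 0.5 times the median were 1 of 111 and 25 of 34, where 29.6% of all bins are. For labelled H2A.Z (median 4) 96 of 111 and 3 of 34 bins were over 2 times (37.7% of all bins), and 1 and 16 were under 0.5 times (32.1%).

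For H3K27me3 (median 8) 70 of 111 and 13 of 34 bins were over 2 times its median (37.2% of all bins), so distal 8p was near the background in rich bins. Under 0.5 times were 16 and 14 bins (38.9%). For H3K4me2 (median 18) 13 of 111 and 4 of 34 bins were over 2 times (21.2%), and 16 and 15 were under 0.5 times (24.4%). For H3K27ac (median 6) the counts were 24 and 7 over 2 times (28.1%), and 34 and 16 under 0.5 times (29.9%). For H3K36me3 (median 11) they were 28 and 8 (34.8%), and 51 and 15 (39.7%).

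H3K27me3 and labelled H2A.Z were both denser next to the telomere than in the rest of distal 8p. Of the 553 H3K27me3 peaks of distal 8p, 174 lay in the first 3 Mb from the telomere, or 62.0 per Mb (53.2 to 72.0), and 379 between 3 and 34 Mb, or 12.2 per Mb (11 to 13.5). Labelled H2A.Z had 40 peaks in the first 3 Mb and 64 between 3 and 34 Mb, or 14.3 and 2.06 per Mb. Labelled H3K9me3 had 1 and 61. Within distal 8p, the best single step of H3K27me3 was at 13 Mb, with 8.33 peaks per Mb after it and 29.5 before it.

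Kinds of peaks differed in their ratio across 34 Mb. Labelled H3K9me3 peaks away from H3K27ac and H3K4me2 numbered 790 from 34 Mb on and 22 in distal 8p, a ratio of 11.1 (7.29 to 17.8). Those on H3K27ac or H3K4me2 numbered 422 and 40, a ratio of 3.26 (2.36 to 4.64). H3K27ac and H3K4me2 themselves had ratios of 1.37 and 1.53, so this contrast is in part set by the way the peaks were picked. H3K27me3 peaks away from labelled H2A.Z numbered 3149 and 540, a ratio of 1.80 (1.65 to 1.98), beside 2.04 for all H3K27me3 peaks. The remaining H3K27me3 peaks, 503 and 13, overlapped a list that itself had a ratio of 15.3, so their higher ratio is set by the way they were picked. H3K4me2 peaks on H3K27ac had a ratio of 1.25 (1.03 to 1.54) and those away from it 1.62 (1.45 to 1.82). That contrast is also in part set by the picking, as H3K27ac itself had the lower ratio of 1.37.

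Peaks over 1 kb had larger ratios than the narrowest in 5 of the 6 lists, with intervals that did not overlap for labelled H2A.Z and H3K27me3. The ratio did not go up steadily with width. Labelled H2A.Z peaks over 1 kb numbered 502 from 34 Mb on and 2 in distal 8p, a ratio of 77.7 with an interval of 21.4 to 643. Those of at most 501 bp, the commonest width in the files, numbered 3106 and 79, a ratio of 12.2 (9.73 to 15.4). H3K27me3 peaks over 1 kb numbered 569 and 52, a ratio of 3.39 (2.55 to 4.59), against 2.04 (1.80 to 2.31) for those of at most 501 bp. For labelled H3K9me3 the ratios were 11.7 (3.89 to 57.4) and 6.18 (4.46 to 8.80), for H3K4me2 1.87 (1.48 to 2.39) and 1.49 (1.29 to 1.73), and for H3K27ac 1.43 (1.10 to 1.88) and 1.40 (1.07 to 1.85). Peaks of 501 bp to 1 kb had a ratio of 20.8 (13.8 to 32.9) for labelled H2A.Z, but 5.01 for labelled H3K9me3, 1.72 for H3K27me3, 1.42 for H3K4me2 and 1.26 for H3K27ac, below the narrowest peaks of these 4 lists. The counts over 1 kb in distal 8p are small, at 2 for labelled H2A.Z and 3 for labelled H3K9me3. H3K36me3 went the other way, with 1.41 (1.17 to 1.70) for peaks of at most 501 bp and 0.892 (0.753 to 1.06) over 1 kb. Median widths were 501 bp on both sides for labelled H2A.Z, labelled H3K9me3 and H3K27me3, 756 and 761 bp for H3K27ac, and 656 and 785.5 bp for H3K36me3.

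**Figure D5:**
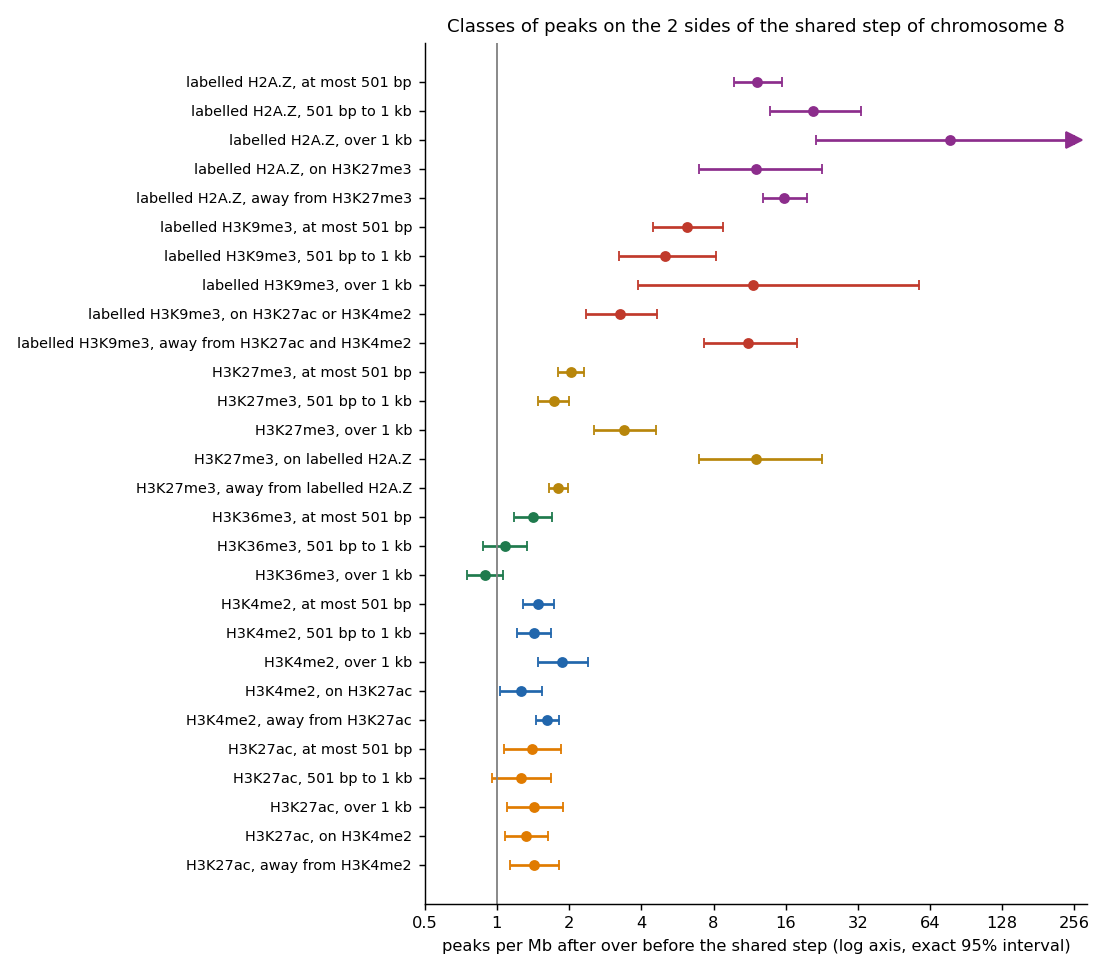
Ratio of peaks per Mb from 34 Mb on over distal 8p (log axis, exact 95% intervals) for classes of peaks by width and by overlap with other lists; an arrow marks an interval that runs past the axis. Labelled H3K9me3 peaks away from active marks (11.1) lie above those on active marks (3.26). Classes picked by overlap carry in part the ratio of the list overlapped (labelled H2A.Z 15.3, H3K4me2 1.53, H3K27ac 1.37).

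Distal 8p also has fewer bins rich in H3K4me2, so the step was read separately in bins over and in bins at or under the genome-wide median of H3K4me2 (18 per Mb). In the 58 and 24 bins at or under it, labelled H2A.Z had 68.2 peaks per Mb from 34 Mb on and 4.03 in distal 8p, a ratio of 16.9 (13.8 to 20.9). In the 53 and 10 bins over it, labelled H2A.Z had 23.6 and 0.80 per Mb, a ratio of 29.5 (14.9 to 68.5). Labelled H3K9me3 had ratios of 10.6 (7.27 to 16.1) in the poorer and 2.81 (1.99 to 4.11) in the richer bins. For H3K27me3 they were 1.59 (1.43 to 1.76) and 4.14 (3.34 to 5.20).

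Among the bins rich in H3K4me2, H3K27ac and H3K36me3 were not sparser in distal 8p than beyond it. H3K27ac had 14.8 peaks per Mb from 34 Mb on and 15.5 in distal 8p, a ratio of 0.952 (0.800 to 1.14). H3K36me3 had 25.3 and 30.4, a ratio of 0.832 (0.734 to 0.946). In the poorer bins H3K27ac had a ratio of 1.18 (0.841 to 1.67) and H3K36me3 one of 0.859 (0.701 to 1.06). Of these 4 intervals, 3 hold 1 and that of H3K36me3 in the richer bins lies below it. Those of labelled H2A.Z, labelled H3K9me3 and H3K27me3 lie above 1 in both kinds of bin. Across bins H3K4me2 itself went with H3K27ac (Spearman rho 0.83 from 34 Mb on, 0.91 in distal 8p) and with H3K36me3 (0.66 and 0.81). Splitting by H3K4me2 therefore in part sets the near-even ratios of H3K27ac and H3K36me3, and the contrast with the other lists is a description.

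An overlap share across 34 Mb can follow the density of the list overlapped, but not every share moved with it. Of H3K27me3 peaks, 13.8% (Wilson interval 12.7 to 14.9) overlapped labelled H2A.Z from 34 Mb on, against 2.35% (1.38 to 3.98) in distal 8p, where labelled H2A.Z was 15.3 times sparser, and 11.7% in the rest of the genome. Of labelled H2A.Z peaks the share on H3K27me3 was 9.82% (9.03 to 10.7) and 12.5% (7.45 to 20.2), against 15.3% in the rest of the genome. Of labelled H3K9me3 peaks, 20.2% (18.0 to 22.6) overlapped H3K27ac from 34 Mb on and 40.3% (29.0 to 52.7) in distal 8p, where the rest of the genome had 31.0%. Read from the other list, 26.8% (24.0 to 29.8) of H3K27ac peaks from 34 Mb on and 11.3% (7.67 to 16.4) in distal 8p overlapped labelled H3K9me3, which was 6.05 times sparser there, against 19.1% in the rest of the genome. None of the 62 labelled H3K9me3 peaks of distal 8p overlapped labelled H2A.Z (Wilson upper bound 5.83%), against 113 of 1212 (9.32%) from 34 Mb on and 7.23% in the rest of the genome, and distal 8p held 104 labelled H2A.Z peaks in all.

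H3K27ac and H3K4me2 met at similar shares on both sides. Of H3K27ac peaks, 55.2% (52.0 to 58.5) overlapped H3K4me2 from 34 Mb on and 57.1% (50.3 to 63.8) in distal 8p, above the 48.6% of the rest of the genome. Across bins, labelled H3K9me3 went with H3K27ac in distal 8p (Spearman rho 0.69 over 34 bins) and not from 34 Mb on (rho -0.28 over 111 bins). Its rho with labelled H2A.Z was 0.47 from 34 Mb on and -0.38 in distal 8p. H3K27ac and H3K4me2 stayed together, at 0.83 and 0.91. Bins share the library and the gene density of their place, so these are descriptions.

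Beyond 34 Mb the lists changed again near the end of 8q. The 4 densest labelled H2A.Z bins adjoin, from 136 to 140 Mb, and held 778 peaks, or 194.5 per Mb (181 to 209). The same 4 Mb held 100 labelled H3K9me3 peaks, or 25 per Mb (20.3 to 30.4). They held 17 H3K27me3, 3 H3K4me2, 1 H3K27ac and 0 H3K36me3 peaks, for which the exact upper bound is 0.922 per Mb. H3K36me3 had no peak for 5399.6 kb, between one at 135818972 to 135819472 and the next at 141219067 to 141219567. From 132 Mb on, labelled H2A.Z had 95.3 peaks per Mb on 8q, against 39.6 before it, the best step of that arm for this list.

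From 141 Mb to the end the active marks were denser on average, and the labelled lists sparser. H3K36me3 had 47.6 peaks per Mb there (41.9 to 53.8), against 12.4 (11.7 to 13.1) on 8q before it. H3K27ac had 28.3 (24.0 to 33.2) and 6.90 (6.38 to 7.46), and H3K4me2 41.0 (35.7 to 46.8) and 20.8 (19.8 to 21.7). H3K27me3 was also denser, at 54.0 (47.9 to 60.6) and 32.2 (31.1 to 33.4). Labelled H2A.Z had 22.6 (18.8 to 27.1) and 49.0 (47.6 to 50.4), and labelled H3K9me3 7.17 (5.07 to 9.84) and 11.4 (10.7 to 12.1).

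The densest bin of each list shows which marks gather where. Labelled H2A.Z and labelled H3K9me3 shared their densest 8q bin, from 136 to 137 Mb, with 219 and 32 peaks. H3K27me3 was densest on 8q from 49 to 50 Mb, with 134 peaks beside 103 of labelled H2A.Z and 0 of H3K36me3, and on 8p from 41 to 42 Mb, with 142. H3K36me3 had 89 peaks from 141 to 142 Mb, where labelled H2A.Z had 0, and 68 on 8p from 28 to 29 Mb. H3K4me2 was densest from 116 to 117 Mb, with 68 peaks beside 38 of H3K27ac, and on 8p from 37 to 38 Mb, with 61 beside 38. H3K27ac was densest from 145 to 146 Mb, with 60.

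The widest peaks of 8p lay from 34 Mb on in every list but H3K36me3. Of all 8p peaks, 424 of 528 lay there for labelled H2A.Z and 102 of 164 for labelled H3K9me3. The counts were 332 of 885 for H3K27me3, 243 of 732 for H3K4me2, 96 of 299 for H3K27ac and 182 of 628 for H3K36me3. For H3K27ac the widest peak of distal 8p was close in width, at 6099 bp against 6676 bp. The widest H3K27ac peaks were at 116657273 to 116683935 on 8q (26.7 kb) and at 36999159 to 37005834 on 8p (6.68 kb), and both overlapped H3K4me2. The second of these contained the widest H3K4me2 peak of 8p, at 36999918 to 37005074, which is also the longest overlap of the pair on that arm. The widest H3K36me3 peaks spanned 51.8 kb at 48818973 to 48870737 on 8q and 32.4 kb at 11677327 to 11709755 in distal 8p, where the peak touched H3K4me2 and H3K27ac.

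Among the lists that stepped between 34 and 39 Mb, the widest H3K27me3 peak on 8q lay at 49077232 to 49083353 (6.12 kb) and met labelled H2A.Z over 3.44 kb. The widest on 8p, at 41633066 to 41637305 (4.24 kb), met no other list. The widest labelled H2A.Z peaks, at 53510957 to 53515593 on 8q and 43705540 to 43709494 on 8p beside the centromere, also met no other list. The widest labelled H3K9me3 peaks, at 117464871 to 117467372 on 8q and 38242723 to 38245140 on 8p, both overlapped H3K4me2 and H3K27ac.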

How the data were processed

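ChIP-seq peak lists of 6 marks in T-47D cells, 1 library per mark, were analysed; the input library was not analysed here. The tools HOMER 4.2 and Bowtie2 2.1.0 and the build hg19 (GRCh37) are named, per the submitters' processing notes. The sources used here do not give what each tool did, how peaks were called, whether the input entered, or the read depth. The deposited lists hold 4 columns and no score, so stricter lists could be made only by width. Coordinates are 1-based. Peaks on other contigs (1295) were set apart.

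The span ran from the first to the last peak of any list, without stretches of 1 Mb or more free of all peaks (143.0 Mb of 2772.7 Mb). Bins with under 10% of their length in the span were left out. Steps were found by Poisson likelihood with at least 5 Mb on each side. Overlap meant at least 1 shared bp. No test of chance was made. Alternatives are given in the closing section. Regions were named by rule: the widest peak and densest bin of each list on each arm, and the longest overlaps. The members, lists and settings were chosen with earlier results of these data known. Gene lists were not used, since the annotation at hand is of another build. Python 3.11.15, numpy 2.4.6, pandas 2.3.3, scipy 1.17.1 and matplotlib 3.10.9 were used.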

Additional observations from a re-analysis of the deposited data

How the results depend on the processing

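The steps of labelled H2A.Z, labelled H3K9me3, H3K27me3 and H3K4me2 kept their place to within the width of 1 bin in all alternatives tried for them (other bins, sides, fits, widths, merging, midpoints and the densest bins left out). That of H3K36me3 moved to 21 Mb (log2 ratio 0.88) with at least 20 Mb on each side and to 17 Mb (1.12) with at least 10 Mb. That of H3K27ac moved to 95 Mb (0.83) with at least 10 or 20 Mb and to 8 Mb (2.32) without the 3 densest bins. The shared step moved to 36 Mb without the list H2A.Z and to 141 Mb without the lists H2A.Z and H3K9me3. Against the log2 step ratios of 3.94 for labelled H2A.Z, 1.13 for H3K27me3 and 1.87 for H3K36me3, other values were 4.66 for labelled H2A.Z in peaks wider than the median, 1.0 for H3K27me3 merged within 1 kb and 1.0 without the 3 densest bins, and for H3K36me3 1.61 with 2 Mb bins and 1.32 without the 3 densest bins. The log2 ratio of 8q to 8p was 2.57 for labelled H2A.Z and 1.27 for H3K27me3 without 5 Mb at the ends and beside the centromere (main values 1.97 and 0.72). Without the 3 densest bins it was 1.82 and 0.85, and by covered bp 0.85 for H3K27me3. For H3K36me3 (-0.02) it was -0.29 in wider peaks, -0.22 by covered bp and 0.18 without the 3 densest bins. For H3K27ac (0.23) it was -0.17 (-0.38 to 0.043) without the ends and -0.039 (-0.24 to 0.16) without the 3 densest bins. Both intervals span both signs, so the excess was lost and no reversal was shown. In bins over the H3K4me2 median, the log2 ratio at 34 Mb was 4.88 for labelled H2A.Z, 1.49 for labelled H3K9me3 and 2.05 for H3K27me3. It was -0.26 for H3K36me3, 0.059 for H3K4me2 and -0.071 for H3K27ac. The last was 0.45 over all bins, and its interval in the richer bins (-0.32 to 0.19) spans both signs. Because the bins over the median are picked by H3K4me2 itself, the H3K4me2 value is no alternative estimate of its step. H3K27ac and H3K36me3 went with H3K4me2 across bins, so their values are in part set by the same picking. In bins at or under it, the value was 3.40 for labelled H3K9me3, 0.67 for H3K27me3 and -0.22 for H3K36me3. The 8q minus 8p share of H3K27ac on H3K4me2 was 2.18 points in wider peaks (main -5.41), and that of H3K27me3 on labelled H2A.Z 3.78 points (main 7.53). The causes were not tested. The alternatives with at least 10 Mb, peak midpoints, lists left out and H3K4me2 bins were chosen after seeing the data. No paired analysis was possible because each mark has 1 library. With no depth and no height per peak, a stretch without peaks may hold signal under the authors' threshold.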
